A study of Mus musculus with 2 samples.

Results

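Dividing hepatocyte-like cells are cells that carried hepatocyte RNA together with RNA of Mki67 or Top2a, both made in cycling cells. They were chosen from measured values. A barcode, the tag of 1 droplet, was kept with at least 2000 unique molecular identifiers (UMIs, each standing for 1 captured transcript), 200 or more genes, and no more than 20% of its UMIs from mitochondrial genes. A kept barcode counted as hepatocyte-like when at least 2% of its UMIs came from Alb, Apoa1, Apoa2, Apoc1, Ttr, Fabp1 and Trf, genes of plasma and lipid-binding proteins, and under 0.5% from C1qa, C1qb and C1qc, complement genes of macrophages. It counted as dividing with at least 3 UMIs of Mki67 plus Top2a. The rule found 91 cells among 6440 barcodes. They were 0 of 34 hepatocyte-like cells of the GS-KO library and 91 of 494 of the GFP control library.

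The series asked how loss of glutamine synthetase (GS, the product of Glul) in liver tumours with mutant β-catenin affects macrophages. The GS-KO library came from 1 tumour-bearing Glul f/f mouse, whose Glul alleles are floxed, given AAV8-Cre. The GFP control library came from 1 tumour-bearing Glul f/f mouse given AAV8-GFP, and both were taken 7 weeks after virus. AAV8 viruses carry their cargo mostly into hepatocytes, where Cre cuts out the floxed stretch of DNA. Livers were perfused with collagenase, dead cells were removed, and cells bearing the macrophage surface protein F4/80 were enriched on beads, so the hepatocytes seen here are those that stayed in a macrophage-enriched fraction. Tumour hepatocytes were not told apart from other hepatocytes. Since every dividing cell came from 1 mouse, no test was possible, and all intervals below are 95% intervals for counting error only.

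Hepatocytes of a healthy adult liver are mostly at rest and re-enter the cell cycle after injury or in tumours. A cycling cell loads MCM helicases onto replication origins, copies its DNA in S phase, and then uses cyclin B with Cdk1 to enter mitosis. The anaphase-promoting complex, with Cdc20 and the ubiquitin enzyme Ube2c, marks cyclin B for destruction so that the cell can divide. Liver lobules are zoned: hepatocytes at the central vein make GS under β-catenin signalling, while those at the portal vein make urea and glucose.

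The dividing cells were set against the 337 control hepatocyte-like cells with 0 UMIs of Mki67 plus Top2a, called non-dividing here, and the 66 control cells with 1 or 2 UMIs were left out. Dividing cells were deeper, that is, held more UMIs, with a median of 80397 (3159 to 320729) against 17925 (2012 to 197594) in non-dividing cells. Their median number of genes was 7021 against 3274. Because a deep cell reaches 3 UMIs more easily, each result was also computed against the 104 non-dividing cells between 37234 and 113265 UMIs, the quartile bounds of the dividing cells. This set is called the depth range below. Median mitochondrial shares were 5.01% in dividing and 4.97% in non-dividing cells. The rule's hepatocyte genes made up a median of 5.38% of UMIs in dividing and 6.31% in non-dividing cells. The 7 cells just inside the threshold, with exactly 3 UMIs, had a median depth of 114112 UMIs and a median of 4113 CPM (UMIs per 1000000 UMIs) summed over the cell cycle lists. The 17 control cells just outside, with exactly 2 UMIs, had a median depth of 42041 UMIs and 5212 CPM. The non-dividing cells had a median of 2309 CPM, but several shallow ones stood as high as dividing cells. Among them were cells of 9936, 2091 and 5816 UMIs with 19827, 17695 and 17022 CPM. Cells of such depth lie outside the depth range, but they add cell cycle RNA to the non-dividing group. Of the markers that the rule did not use, the cycling-cell genes Hmmr and Cdkn3 were detected in 77 and 79 of the 91 cells. They were detected in 24 and 17 of the 337 non-dividing cells, which were shallower. Both cycle with Mki67 and Top2a, so their level follows in part from the rule. Mki67, Top2a and Alb are part of the rule, so their presence is no check; Alb stood at 7724 CPM in dividing and 8801 CPM in non-dividing cells.

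RNA of other cell types was present at low levels. The 17 macrophage markers summed to 436 CPM in dividing cells, 378 CPM in non-dividing cells (240 CPM in the depth range) and 52958 CPM in the kept control barcodes that were not hepatocyte-like, and single dividing cells ranged from 91.7 to 5942 CPM. Marco was at 0 in the dividing cells, and none of the 14 macrophage markers with at least 50 UMIs passed 2-fold. C1qa, C1qb and C1qc are among the 17 and the 14, at 52.2, 51.7 and 35.3 CPM in dividing cells. The rule held them under 0.5% of UMIs, so the gap to the barcodes that were not hepatocyte-like was partly set in advance. Fcer1g, an Fc receptor subunit, was at 1.38 (1.14 to 1.67), and at 2.34 (1.80 to 3.05) against the depth range. Adgre1, which codes for F4/80, had 31 UMIs in dividing and 17 UMIs in non-dividing cells, a ratio of 3.06 (1.64 to 5.90), or 3.87 against the depth range. The C1q genes of the rule were somewhat higher in dividing cells, with ratios of 1.47 for C1qa, 1.58 for C1qb and 1.601 for C1qc, or 1.89, 2.22 and 1.96 against the depth range. Summed endothelial markers stood at 7.53 CPM in dividing and 17.5 CPM in non-dividing cells but 4.24 CPM in the depth range, and T cell markers at 2.11 CPM in dividing and 3.15 CPM in non-dividing cells but 0.662 CPM in the depth range, so both were higher or lower in dividing cells depending on the cells they were set against. Neutrophil markers summed to 3.44 CPM in dividing cells, 7.32 CPM in non-dividing cells and 9.41 CPM in the depth range. Cholangiocyte markers, for bile duct cells, summed to 13.9 CPM in dividing and 8.97 CPM in non-dividing cells, and Epcam made up most of the sum in dividing cells, at 7.40 CPM in dividing and 2.36 CPM in non-dividing cells. Krt19 and Tff2 were at 0 in both. No barcode of either library met both the dividing rule and the hepatocyte rule with C1q RNA above its limit. Scrublet called 0 of the 91 cells a doublet, and the 1 barcode sequence found in both libraries was no member.

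The share of dividing cells was 0 of 34 GS-KO hepatocyte-like cells, which allows up to 8.82% by the floor of 3 counts and up to 10.3% by the exact interval, and 91 of 494 or 18.4% (15.1 to 22.1%) of control hepatocyte-like cells. The bead enrichment and dead cell removal set which hepatocytes reached the libraries, and depth differed between them: the median was 6078 UMIs in GS-KO and 31718 UMIs in control hepatocyte-like cells. In the control library the share climbed with depth, from 2 of 85 cells between 2000 and 5000 UMIs to 9 of 125 up to 20000, 17 of 80 up to 50000, 31 of 130 up to 100000 and 32 of 74 above 100000 UMIs. The GS-KO cells lay mostly at low depth, with 0 of 14 cells between 2000 and 5000 UMIs, 0 of 17 between 5000 and 20000, 0 of 2 between 20000 and 50000 and 0 of 1 above that. At the control shares of each depth band, the 34 GS-KO cells would have held 2.22 dividing cells. An absence at that size was not detectable at this depth, and whether the mice differ cannot be told from these cells.

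With every cell thinned to 2000 UMIs, at least 1 UMI of Mki67 plus Top2a was left in 0 of 34 GS-KO cells and in 58 of 494 control cells, 11.7% (9.04 to 14.9%). Free RNA can add to such a share. Cells carrying the B cell genes Cd79a or Cd79b but little hepatocyte RNA had it in 0 of 124 GS-KO and 8 of 517 control cells (1.55%). Of those 517 control cells 5 held at least 3 UMIs of Mki67 plus Top2a before thinning. Free RNA and cycling B cells were not told apart. At full depth 3 GS-KO hepatocyte-like cells had 2 UMIs each and the other 31 had 0. Of these 3, the cell with 12828 UMIs had 12629 CPM summed over the cell cycle lists. The median of this sum was 2492 CPM over the 34 GS-KO cells and 12514 CPM over the 91 dividing cells. A GS-KO cell under the limit can thus carry as much cell cycle RNA as a dividing control cell. The share of all kept barcodes that passed the Mki67 plus Top2a limit was 10 of 543 in the GS-KO and 193 of 2815 in the control library, and the 91 cells are among those 193.

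**Figure D1:**
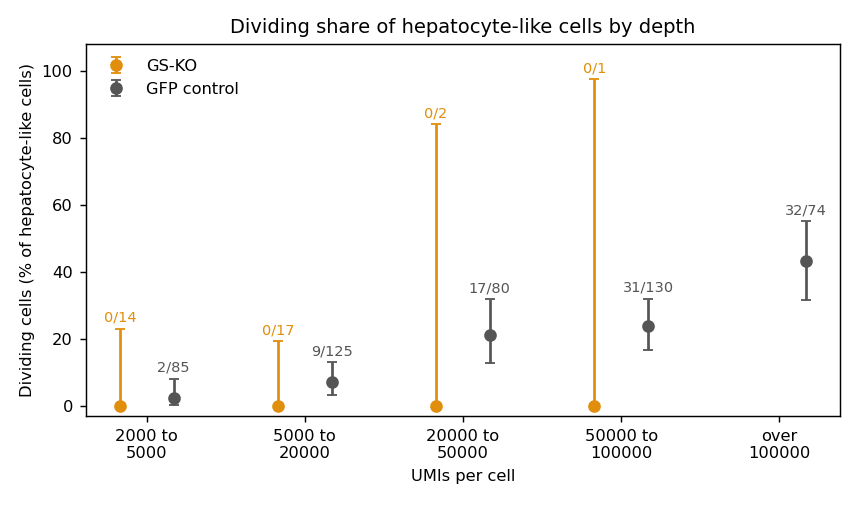
Share of hepatocyte-like cells that were dividing (y axis, %) in bands of UMIs per cell (x axis), for GS-KO (orange) and GFP control (grey). Points are shares, bars 95% Clopper-Pearson intervals and labels dividing cells over all cells. The control share runs from 2 of 85 in the lowest band to 32 of 74 in the highest, and no GS-KO cell met the dividing rule.

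Of 9717 genes with at least 50 UMIs over both groups, 847 (8.72%) were at least 2-fold higher and 231 (2.38%) at least 2-fold lower in dividing than in non-dividing cells, and the median log2 ratio over all genes was 0.17. Against the depth range these were 875 of 9237 genes (9.47%) and 200 (2.17%), and 744 of the 847 higher and 146 of the 231 lower genes passed again. Of the 847 higher genes, 178 belonged to the cell cycle lists used here. Since Mki67 and Top2a picked the cells, genes that cycle with them had to be higher, and all ratios below describe these cells.

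Genes of mitosis stood furthest apart. All 22 measured mitotic cyclins and kinases were at least 2-fold higher in dividing cells (8.72% of all genes were), with a median log2 ratio of 5.43. Ccnb1, the cyclin B that drives entry into mitosis, had 85.5 CPM (79.1 to 92.4) in dividing and 0.866 CPM (0.432 to 1.55) in non-dividing cells, a ratio of 98.8 (54.8 to 199). It was seen in 65 of 91 dividing and 10 of 337 non-dividing cells, and single dividing cells ranged from 0 to 280 CPM around a median of 69.8. Ccnb2, the other main cyclin B, had a ratio of 121 (73.0 to 217), and Cdk1, their kinase, 31.7 (24.5 to 41.7), at 152 CPM in dividing and 4.80 CPM in non-dividing cells. Plk1, a kinase of spindle assembly and mitotic exit, stood at 70.6 CPM in dividing and 0.315 CPM in non-dividing cells (ratio 224, 87.0 to 826). Cdc25c, the phosphatase that activates Cdk1, had 119 UMIs in dividing cells and none in non-dividing cells, at least 66.6-fold higher against a floor of 3 counts over the non-dividing group. Against the depth range the ratios of Ccnb1, Ccnb2 and Cdk1 were larger still, at 215, 359 and 52.2.

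Of 26 measured spindle genes and kinesins 25 were higher, with a median log2 ratio of 5.87 (5.79 with genes at 0 set to their bound). Ckap2l, a spindle and centrosome protein, led the ranking with 525 UMIs in dividing cells and 1 UMI in non-dividing cells (ratio 882, 158 to 34888). Tpx2, which activates Aurora A kinase at the spindle, had a ratio of 161 (73.7 to 442), Kif20a, a kinesin of cytokinesis, 122 (59.0 to 306), and Nusap1, which bundles spindle microtubules, 102 (56.9 to 206). Hmmr, a microtubule-binding protein, had 131 CPM in dividing and 2.44 CPM in non-dividing cells, a ratio of 53.6 (37.5 to 79.3). Spc24, a kinetochore subunit, differed less, at 382 CPM in dividing and 69.0 CPM in non-dividing cells (ratio 5.55, 5.14 to 5.99), and 186 of the 337 non-dividing cells carried it.

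All 21 centromere and chromosomal passenger genes were higher, with a median log2 ratio of 5.05. Cenpf, a kinetochore protein of late G2 and mitosis, had 227 CPM in dividing and 1.18 CPM in non-dividing cells, a ratio of 192 (116 to 344). Birc5 (survivin), which guides the Aurora B complex, had 244 CPM in dividing and 3.31 CPM in non-dividing cells (ratio 73.8, 54.4 to 103) and was found in 86 of 91 and 28 of 337 cells. Of 15 condensin and cohesin genes, which shape and hold chromosomes, 14 were higher. Pttg1 (securin), the brake on sister separation, had a ratio of 10.6 (9.35 to 11.9), and Ncapg, a condensin subunit, 67.5 (28.5 to 210.2).

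Of 10 measured genes of the anaphase-promoting complex and its checkpoint 9 were higher, with a median log2 ratio of 2.52. Among the genes that stood far apart were its partners Ube2c and Cdc20. Ube2c had 514 CPM (498 to 530) in dividing and 5.90 CPM (4.64 to 7.40) in non-dividing cells, a ratio of 87.0 (69.2 to 111), and was present in 87 of 91 and 41 of 337 cells. Cdc20 had 149 CPM in dividing and 1.42 CPM in non-dividing cells (ratio 105, 66.3 to 178). Cdkn3, a phosphatase that acts on Cdk1, had 159 CPM in dividing and 1.57 CPM in non-dividing cells (ratio 101, 65.3 to 166). Cytokinesis genes were mixed: 8 of 12 were higher, among them Ect2 (ratio 100.5, 48.4 to 252) and Anln (90.3, 38.2 to 280.5), which position and build the contractile ring. The general cytoskeletal genes Rhoa (1.23, 1.15 to 1.31) and Sept9 (0.968, 0.828 to 1.13) stayed within 2-fold. Cip2a, an inhibitor of the phosphatase PP2A, and Depdc1a completed the 15 highest-ranked genes, at 34.9 and 26.3 CPM in dividing cells and 0.157 and 0.0787 CPM in non-dividing cells.

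**Figure D2:**
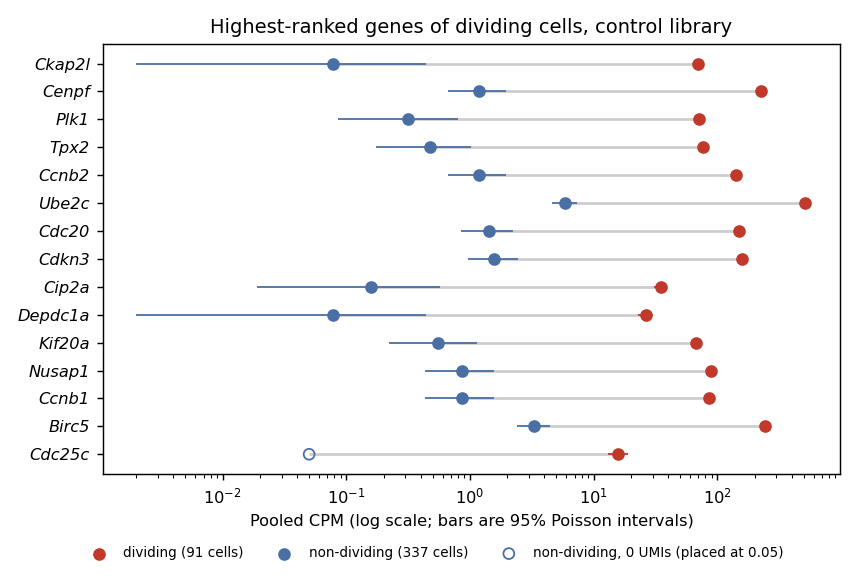
The 15 highest-ranked genes, with pooled CPM on a log x axis for 91 dividing cells (red) and 337 non-dividing cells (blue) of the control library; bars are 95% Poisson intervals. Each dividing level lies far above its non-dividing level, from 513.7 against 5.90 CPM for Ube2c to 15.7 CPM against 0 UMIs for Cdc25c (open circle, placed at 0.05).

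Promoters of some of these genes are shown because mitotic and replication genes are known to be switched on through different short motifs. The cell cycle homology region (CHR, TTTGAA) and the CCAAT box are known for late cell cycle genes, and E2F sites (searched as TTGGCGC or TTTCCCGC) for replication genes. Each window is 120 bases before the gene's start in RefSeq on GRCm38.p6, read 5′ to 3′ on the gene's strand, and capitals mark matches to the named motifs on either strand (a match on the other strand reads TTCAAA or ATTGG). For the 3 mitotic genes capitals mark the CHR and the CCAAT box, and for Mcm6, a subunit of the MCM helicase, the E2F site. CCAAT boxes were not marked in Mcm6, whose stretch also holds ATTGG in lower case.
Cdc20 (chr4:118437344-118437463, minus strand): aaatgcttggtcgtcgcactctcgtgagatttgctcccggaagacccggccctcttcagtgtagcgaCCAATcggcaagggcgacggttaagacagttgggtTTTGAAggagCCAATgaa
Cdk1 (chr10:69352913-69353032, minus strand): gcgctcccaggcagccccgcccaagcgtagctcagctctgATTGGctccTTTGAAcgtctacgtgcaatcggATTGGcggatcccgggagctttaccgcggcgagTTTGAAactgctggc
Ube2c (chr2:164769809-164769928, plus strand): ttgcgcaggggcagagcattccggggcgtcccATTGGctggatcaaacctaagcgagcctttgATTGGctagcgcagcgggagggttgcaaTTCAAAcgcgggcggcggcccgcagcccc
Mcm6 (chr1:128359706-128359825, minus strand): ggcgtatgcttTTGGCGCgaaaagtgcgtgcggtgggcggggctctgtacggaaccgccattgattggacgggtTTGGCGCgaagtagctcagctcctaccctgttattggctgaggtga

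Windows of 250 bases before to 50 after the start were searched for 71 genes of the mitotic lists and 42 genes of the replication lists that RefSeq held, and for all 32851 promoters. The CHR was in 42 of 76 promoters of the mitotic lists (55.3%), 8 of 50 of the replication lists (16.0%) and 17.9% of all promoters. The CCAAT box, with or without a CHR, was common in both, in 58 of the 76 mitotic promoters (76.3%), 28 of the 50 replication promoters (56.0%) and 37.4% of all. CHR and CCAAT box together were in 37 of the 76 mitotic promoters (48.7%), 4 of the 50 replication promoters and 6.95% of all. An E2F site was in 15 of the 50 replication promoters (30.0%), 7 of the 76 mitotic promoters (9.21%) and 3.44% of all. For the plasma protein list the CHR was in 5 of 34 promoters (14.7%) and the E2F site in 1. A match is a run of letters, and binding was not measured.

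Replication genes were higher by smaller ratios. Of 15 measured genes of origin licensing and firing 14 were at least 2-fold higher, with a median log2 ratio of 2.79. The exception was Mcm10, at 14.7 CPM in dividing and 21.4 CPM in non-dividing cells. Mcm6 had 26.4 CPM in dividing and 1.26 CPM in non-dividing cells, a ratio of 21.0 (12.6 to 37.4), and Mcm5 16.7 (10.5 to 27.9). Gmnn (geminin), which blocks a second round of licensing, had a ratio of 4.65 (3.88 to 5.58), and Dbf4, the activator of the Cdc7 kinase that fires origins, 14.6 (11.4 to 18.96). Of 31 DNA synthesis genes 29 were higher, with a median log2 ratio of 2.60. Pcna, the sliding clamp of DNA polymerase, had 102 CPM (94.7 to 109) in dividing and 21.96 CPM (19.5 to 24.7) in non-dividing cells, a ratio of 4.63 (4.04 to 5.33). It was present in 85 of 91 dividing and 136 of 337 non-dividing cells, so the groups overlapped widely. Rrm2, the S phase subunit of ribonucleotide reductase, stood further apart at 58.2 CPM in dividing and 1.97 CPM in non-dividing cells (ratio 29.6, 19.8 to 46.2).

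Replication-dependent histones, whose messages mostly lack the poly(A) tail that this capture needs, were split: 6 of 12 measured genes were higher. Hist1h1b had 51.8 CPM in dividing and 1.89 CPM in non-dividing cells (ratio 27.4, 18.2 to 43.3), but 39 of 91 dividing cells carried it. Hist1h2bc, a histone gene also expressed outside S phase, was at 180 CPM in dividing and 333 CPM in non-dividing cells (ratio 0.540, 0.507 to 0.574). All 13 measured DNA repair genes were higher, including Brca1 with 52 UMIs in dividing cells and 1 UMI in non-dividing cells (ratio 87.3, 14.996 to 3515).

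Among 11 cell cycle transcription factors 8 were higher. Foxm1, an activator of mitotic genes, had 17.6 CPM in dividing and 0.472 CPM in non-dividing cells (ratio 37.2, 16.7 to 103), while E2f1, an activator of replication genes, had a ratio of 4.79 (3.43 to 6.81) and Myc 0.990. G1 genes differed little. Ccnd1 (cyclin D1), a β-catenin target in liver, had 234 CPM in dividing and 165 CPM in non-dividing cells, a ratio of 1.42 (1.33 to 1.51), and 235 of 337 non-dividing cells carried it. Cdk4, its kinase, had a ratio of 1.03 (0.859 to 1.23), and Cdk2 was the 1 of 5 G1 genes past 2-fold (2.16, 1.44 to 3.27). Cyclin-dependent kinase inhibitors and p53 targets were mixed: 8 of 15 were at least 2-fold higher, with a median log2 ratio of 0.99. Cdkn1a (p21) had 45.7 CPM in dividing and 17.6 CPM in non-dividing cells (ratio 2.59, 2.19 to 3.08), and Trp53inp1, a p53 target, 57.6 and 22.1 CPM (ratio 2.61, 2.24 to 3.04). Mdm2, another p53 target, passed at 2.07 (1.73 to 2.47), but was at 1.87 against the depth range. Cdkn2c (p18) was level, at 55.5 CPM in dividing and 46.0 CPM in non-dividing cells.

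Genes of chromatin and cytoskeleton went with the cell cycle genes. Of 13 chromatin genes 11 were higher. H2afz (histone H2A.Z) had 1415 CPM in dividing and 215 CPM in non-dividing cells (ratio 6.57, 6.30 to 6.86), and single dividing cells ranged from 61.3 to 2943 CPM around a median of 1402, above the non-dividing median of 176. Hmgb2, a DNA-bending protein, had a ratio of 11.1 (9.80 to 12.5). Of 14 tubulin, actin and lamina genes 8 were higher. Stmn1 (stathmin), which frees tubulin from microtubules, was detected in all 91 dividing cells, at 708.5 CPM against 43.9 CPM in non-dividing cells (ratio 16.1, 14.8 to 17.6). Tubb6, a β-tubulin, had a ratio of 16.5 (13.6 to 20.3), while Actb stayed at 1.19.

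Growth genes moved little beside these. Of 20 ribosome biogenesis genes 1 was higher, Nop58 (ratio 2.19, 1.87 to 2.55), and the median log2 ratio was 0.28, near the 0.17 of all genes. Of 23 nucleotide, serine and one-carbon genes 4 were higher. They were Psat1 (5.73, 3.29 to 10.5) and Psph (2.89, 2.30 to 3.64) of serine synthesis, Mthfd2 (5.72, 3.69 to 9.14) of the mitochondrial folate cycle, and Pfas (2.45) of purine synthesis. None of 15 glycolysis genes was higher, and Pfkm and Slc2a2, the liver's glucose transporter, were lower (0.388 and 0.453). Fetal liver and liver tumour markers were near level, with Scd2 lower (0.240) and 2 of 12 higher: Epcam (3.13, 1.98 to 5.06) and Golm1 (2.29, 1.83 to 2.88). Afp, the fetal albumin relative made by liver tumours, stood at 447 CPM in dividing and 339 CPM in non-dividing cells (ratio 1.32, 1.26 to 1.38) and was detected in 77 of 91 and 200 of 337 cells.

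**Figure D3:**
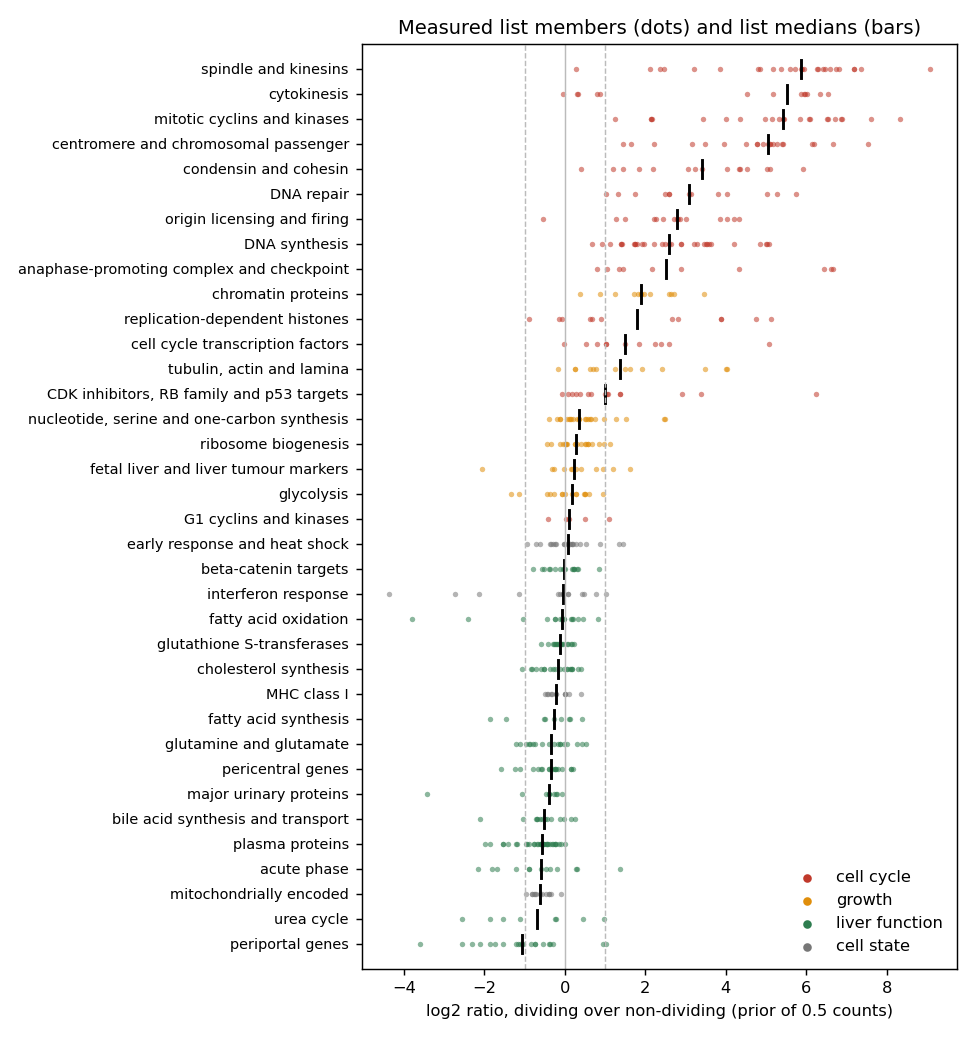
Log2 ratio, dividing over non-dividing control cells (x axis, prior of 0.5 counts), of each measured gene (dots) in 36 lists (rows), with the list median as a bar and dashed lines at 2-fold. The mitotic cyclins and spindle lists have medians of 5.43 and 5.87, liver function lists lie at or below 0, and periportal genes have a median of -1.06.

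Dividing C1q-rich cells of the same library, which carried macrophage complement RNA, served to show what cycling cells of another type shared. There were 76 of them, compared with 1051 C1q-rich cells with 0 UMIs of Mki67 plus Top2a. In them 690 of 10270 genes (6.72%) were at least 2-fold higher and 355 (3.46%) at least 2-fold lower. Of the 718 genes higher in dividing hepatocyte-like cells and measured in both, 397 were also higher in dividing C1q-rich cells, which is 55.3% of the hepatocyte set and 68.9% of the 576 C1q-rich genes. The median log2 ratio of the mitotic cyclins and kinases was 5.43 in hepatocyte-like and 5.74 in C1q-rich cells, and that of origin licensing 2.79 and 2.69. No test of the differences that follow is possible, since both sets come from 1 library.

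Some ratios were unlike in the 2 cell types. E2f8, a repressor of S phase genes, had a ratio of 6.19 (3.52 to 11.5) in hepatocyte-like cells and 97.8 in C1q-rich cells, and Cdkn2c 1.21 and 13.3. For Cdkn2c the non-dividing hepatocyte-like cells already held more RNA, with 46.0 CPM, than non-dividing C1q-rich cells, with 6.68 CPM. Tubb6 went the other way, at 16.5 in hepatocyte-like and 2.45 in C1q-rich cells. In C1q-rich cells the median log2 ratio over all measured genes was 0.10, so a ratio under 1.2 was common there and sets no gene apart. A set of 131 genes in no list was at least 2-fold higher in dividing hepatocyte-like cells with a ratio under 1.2 in C1q-rich cells, a cut chosen after the values were seen. Among them were Ccl9, a chemokine (96.2 CPM in dividing and 8.97 CPM in non-dividing hepatocyte-like cells, ratio 10.7, 8.79 to 13.2), Cd44, a hyaluronan receptor (4.60, 3.70 to 5.77), Itga5, an integrin subunit (4.95, 3.63 to 6.83), and Lmna, the A-type lamin (197 and 74.4 CPM, ratio 2.65, 2.45 to 2.88). Macrophages carry some of this RNA too: Cd44 stood at 170 CPM in dividing and non-dividing C1q-rich cells, while the 17 macrophage markers summed to 436 CPM in dividing hepatocyte-like cells and 240 CPM in the depth range. The part of carried-over macrophage RNA in these ratios was not tested.

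The 91 cells differed in their balance of replication and mitotic RNA. For each cell, CPM was summed over replication genes (the licensing and DNA synthesis lists) and over mitotic genes (the lists of cyclins and kinases, spindle, centromere and anaphase-promoting complex). Replication sums ranged from 261 to 6086 CPM (median 1449) and mitotic sums from 339 to 16962 CPM (median 5352). The mitotic part of the 2 sums ran from 36.5% to 92.5% of a cell, with a median of 76.1%. Across the 91 cells of this library Spearman's rho between the sums was 0.47, a description of cells that share a library and vary in depth. Pooled, the mitotic part was 77.4% in dividing hepatocyte-like and 70.4% in dividing C1q-rich cells. Single C1q-rich cells ranged from 17.3% to 94.1% around a median of 74.0%, near the 76.1% of hepatocyte-like cells. Their median depth was 27029 UMIs, against 80397 in the hepatocyte-like cells. In non-dividing hepatocyte-like cells, whose cell cycle sums are mostly low, the pooled part was 53.9% and the median 52.8% over the 332 cells with any such UMI. Of the 91 cells, 2 had cell cycle sums under the upper quartile of the non-dividing cells (2875 CPM), and both were among the cells of low mitotic part.

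When the 91 cells were ordered by their mitotic part, the 31 lowest (up to 68.5%), the 30 middle and the 30 highest cells (from 80.4%) formed a gradient rather than separate groups, and 18 and 32 cells lay within 5 points of the 2 limits. Genes of the 2 sums follow from this ordering, and Hist1h1b, Glul, Alb and Ccnd1 were in neither. Cenpf stood at 58.6, 120.2 and 453 CPM from the lowest to the highest, and Ube2c at 132, 282 and 1020 CPM. Ccne2, the cyclin of the G1 to S transition and a gene of the replication sum, stood at 16.7, 1.19 and 1.42 CPM. Hist1h1b stood at 141, 24.99 and 6.01 CPM, so it was found mainly in cells of low mitotic part. Glul was 2768, 2635 and 2368 CPM, Alb 7598, 8032 and 7549 CPM, and Ccnd1 273, 297 and 147 CPM. Median depths were 69865, 81722 and 83177 UMIs.

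**Figure D4:**
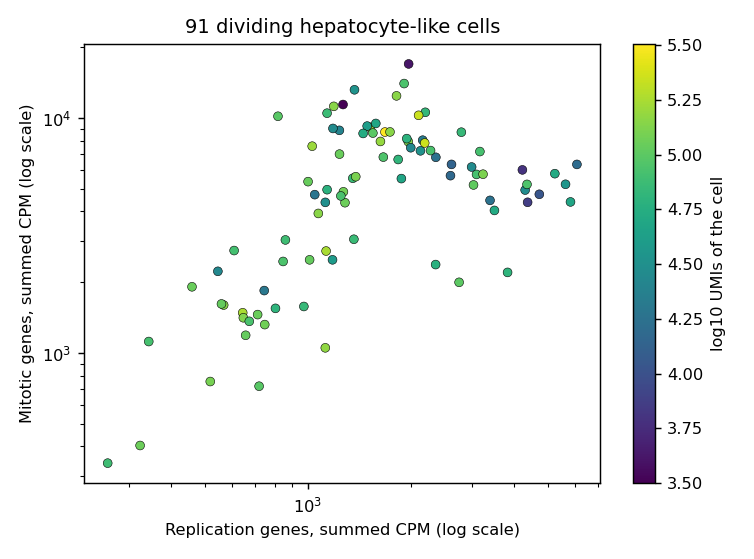
Each of the 91 dividing cells by its summed CPM of replication genes (x axis, log scale) and mitotic genes (y axis, log scale), coloured by log10 of its UMIs. Cells spread without a gap from low values of both (261 and 339 CPM at the least) to cells high in replication genes (up to 6086 CPM) and cells high in mitotic genes (up to 16962 CPM).

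Most genes of hepatocyte function stayed within 2-fold, and a number of enzymes were lower. Of 36 plasma protein genes 0 were at least 2-fold higher and 7 lower (2.38% of all genes were lower), with a median log2 ratio of -0.56. Hnf4a, the transcription factor that keeps hepatocyte identity, was level at 159 CPM in dividing and 160 CPM in non-dividing cells (ratio 0.992, 0.923 to 1.07). Rbp4, the plasma retinol carrier, had 7051 CPM in dividing and 7858 CPM in non-dividing cells. Hp (haptoglobin), which binds free haemoglobin, was lower at 393 CPM in dividing and 917 CPM in non-dividing cells (ratio 0.428, 0.411 to 0.446), and Apoa5, a regulator of plasma triglycerides, at 30.9 and 122 CPM (ratio 0.253, 0.220 to 0.291). Serpina1c, an α1-antitrypsin gene with near-identical paralogs that share reads, had a ratio of 0.275. Of its UMIs in dividing cells 44.7% came from 1 cell, at 4722 CPM, which raised this ratio. The other dividing cells stood at 75.6 CPM.

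Several metabolic enzymes were among the 15 lower genes. Mat1a, which makes S-adenosylmethionine in liver, had 11.2 CPM (8.97 to 13.9) in dividing and 84.4 CPM (79.4 to 89.6) in non-dividing cells, 7.51-fold lower (6.02 to 9.48), and was seen in 28 of 91 and 118 of 337 cells. Gnmt, which consumes S-adenosylmethionine, had 27.8 CPM in dividing and 170 CPM in non-dividing cells, 6.11-fold lower (5.30 to 7.08). Bhmt, which remakes methionine from betaine and is not among the 15, stood at 92.4 CPM in dividing and 278 CPM in non-dividing cells (ratio 0.333, 0.306 to 0.361). Uox (urate oxidase) was 7.55-fold lower (6.36 to 9.03) and Agxt, which clears glyoxylate, 9.25-fold lower (5.49 to 16.8). All 5 stayed at least 2-fold lower against the depth range, at ratios of 0.117, 0.223, 0.457, 0.173 and 0.197.

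The other leading lower genes were often carried by few cells. Elovl3, a fatty acid elongase, had 2 UMIs in dividing cells and 227 UMIs in 28 non-dividing cells, 67.6-fold lower (18.5 to 561). Rhox5, a homeobox gene, had none in dividing cells and 104 UMIs in 5 non-dividing cells, at least 20.6-fold lower. A lone non-dividing cell held 95.7% of the non-dividing UMIs of Rsad2, 79.8% of those of Cpe and 68.9% of those of Mup9. Gpihbp1, an endothelial lipase anchor, had 1 UMI in dividing and 51 UMIs in non-dividing cells, and endothelial markers summed to 7.53 CPM in dividing and 17.5 CPM in non-dividing cells (4.24 CPM in the depth range); against the depth range its interval ran from 0.00507 to 2.52. Fabp5 (0.160, 0.119 to 0.211) and Serpina12 (0.141, 0.0882 to 0.217), coding for a lipid-binding protein and an adipokine of the serpin family, and Hal, the first enzyme of histidine breakdown (0.0763, 0.0203 to 0.202), complete the group with Cyp4a10, a fatty acid hydroxylase with 2 UMIs in dividing cells, and Cps1.

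Lipid and detoxification genes were near level apart from some members. Scd1, which makes monounsaturated fatty acids, had 118 CPM in dividing and 425 CPM in non-dividing cells (ratio 0.277, 0.258 to 0.298), and it and Thrsp (0.364) were the 2 of 9 fatty acid synthesis genes that were lower. Of 17 fatty acid oxidation genes 3 were lower, namely Cyp4a10, Cyp4a14 and Acaa1b, which was at 561 CPM in dividing and 1148 CPM in non-dividing cells. None of 17 glutathione S-transferases passed 2-fold, with Gstm1 at 17519 CPM in dividing and 19744 CPM in non-dividing cells. Of 20 cholesterol synthesis genes Mvd was lower (0.477, 0.305 to 0.727), and of 14 bile acid genes Cyp8b1, the enzyme of cholic acid synthesis (0.230, 0.175 to 0.298), and Slco1a1 (0.490, 0.412 to 0.580). Of 10 major urinary protein genes, near-identical paralogs that share reads, 2 were lower, Mup9 and Mup3, and Mup3 was at 0.481 overall and 0.630 against the depth range. The same dividing cell that raised the Serpina1c ratio held 1162 of the 2191 Mup3 UMIs of dividing cells. Without it the others stood at 138 CPM, against 602 CPM in non-dividing cells. It also held 288 of 892 Scd1 UMIs, and the other dividing cells stood at 80.9 CPM of Scd1.

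Glul RNA was found in all 91 dividing cells, at 2574 CPM (2538 to 2611) in dividing and 3394 CPM (3362 to 3426) in non-dividing cells, a ratio of 0.759 (0.746 to 0.771), and the 31 non-dividing GS-KO hepatocyte-like cells had 135 CPM. Single dividing cells ranged from 31.1 to 6871 CPM around a median of 2292, inside the non-dividing range of 0 to 15578 CPM around 2712. A Glul UMI alone does not show expression: 925 of 1051 non-dividing C1q-rich cells (88.0%) had 1 at a median of 16377 UMIs per cell, against a median of 80397 in the dividing cells. Their median level was 219.6 CPM, and 3 of the 91 dividing cells lay under it. Among control cells with at least 20000 UMIs, 3 of 22 cells under 200 CPM of Glul were dividing (13.6%, 2.91 to 34.9%), 12 of 51 between 200 and 1000 CPM (23.5%), 35 of 83 between 1000 and 3000 CPM (42.2%, 31.4 to 53.5%) and 30 of 128 at 3000 CPM or more (23.4%, 16.4 to 31.7%). Median depths in these bands were 61173, 75053, 83468 and 65549 UMIs, so the deepest band was also the one with the highest share.

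β-Catenin targets were near level gene by gene but lower as a sum. None of 17 passed 2-fold, and the median log2 ratio was -0.01, or -0.19 against the depth range. Summed, they stood at 4968 CPM in dividing and 6480 CPM in non-dividing cells (ratio 0.767, 0.757 to 0.776). The sum includes Glul and Oat. Axin2, a feedback inhibitor of the pathway, had 41.6 CPM in dividing and 35.8 CPM in non-dividing cells (ratio 1.16, 1.00 to 1.35), Lgr5, a receptor for R-spondins, 25.2 and 26.0 CPM (0.972, 0.809 to 1.16), and Tbx3 66.4 and 72.2 CPM (0.919, 0.823 to 1.03). Oat, a target that makes glutamate from ornithine, had 672 CPM in dividing and 1171 CPM in non-dividing cells (ratio 0.574, 0.556 to 0.592). Of 18 glutamine and glutamate genes 2 were lower: Slc38a3, a glutamine transporter (40.1 CPM in dividing and 87.1 CPM in non-dividing cells, ratio 0.460, 0.404 to 0.523), and Gls2, liver glutaminase (0.427, and 0.537 against the depth range). Of 19 pericentral genes 3 were lower, Cyp3a11 (367 and 1098 CPM, ratio 0.334, 0.321 to 0.348), Cyp2c29 and Slc13a3. Cyp2e1, Cyp1a2 and Cyp2a5, the main pericentral cytochromes, had ratios of 0.627, 0.845 and 0.815.

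Periportal genes had the lowest median of the 36 lists, with 12 of 21 at least 2-fold lower (2.38% of all genes were), 1 higher (Aldh1b1, 2.05) and a median log2 ratio of -1.06. Against the depth range 8 of 19 were lower (2.17% of all genes were) and 2 higher, with a median of -0.88. Urea cycle genes overlap them, and 4 of 8 were lower: Cps1, its first enzyme, Ass1, Arg1 and Asl. Against the depth range 3 of the 8 were lower and 1 higher. The Arg1 ratio ran from 0.112 to 0.953 over the 16 alternative settings. Asl had 64.5 CPM in dividing and 141 CPM in non-dividing cells (ratio 0.459, 0.415 to 0.508). Ass1 had a ratio of 0.346 (0.314 to 0.381) but 0.609 against the depth range, and Sds, of serine breakdown, 0.230 but 0.772.

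For several periportal genes 1 cell held most of the UMIs of all 91. It had all 38 Cps1 UMIs, 63 of 70 UMIs of Cyp2f2, 42 of 45 of Pck1, the control enzyme of glucose synthesis, and 12 of 14 of Gls2. It also had 150 of 504 UMIs of Ass1 and 36 of 76 of Arg1, and the other dividing cells stood at 47.4 and 5.36 CPM. It is the cell named above for Serpina1c, Mup3 and Scd1. Its summed periportal list was 7683 CPM, against 2454 CPM in the next dividing cell and a median of 443 CPM in all 91. This cell had 96574 UMIs, 34 of them from Mki67 and Top2a, 27 of Ccnb1, 41 of Cdk1 and 167 of Ube2c. It had 3 UMIs of Glul and 0 of Cyp2a5 and Afp. Non-dividing cells had a median of 678 CPM of the periportal list and reached 26059 CPM, and 29 of the 337 lay at or above 5000 CPM.

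Split at 1000 CPM of the periportal list, a limit chosen after the values were seen, 4 of 135 control hepatocyte-like cells above it were dividing (2.96%, 0.813 to 7.41%), against 87 of 359 below it (24.2%, 19.9 to 29.0%). Cells above it were shallower, with a median of 14058 UMIs against 44617 below. Among cells with at least 20000 UMIs the shares were 2 of 54 above (3.70%, 0.452 to 12.7%) and 78 of 230 below (33.9%, 27.8 to 40.4%), at median depths of 61173 and 77573 UMIs. At a limit of 5000 CPM they were 1 of 32 above and 90 of 462 below, and 11 cells lay within 1000 CPM of that limit. Among cells with at least 20000 UMIs this became 1 of 6 above (16.7%, 0.421 to 64.1%) and 79 of 278 below (28.4%, 23.2 to 34.1%), intervals that overlap.

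**Figure D5:**
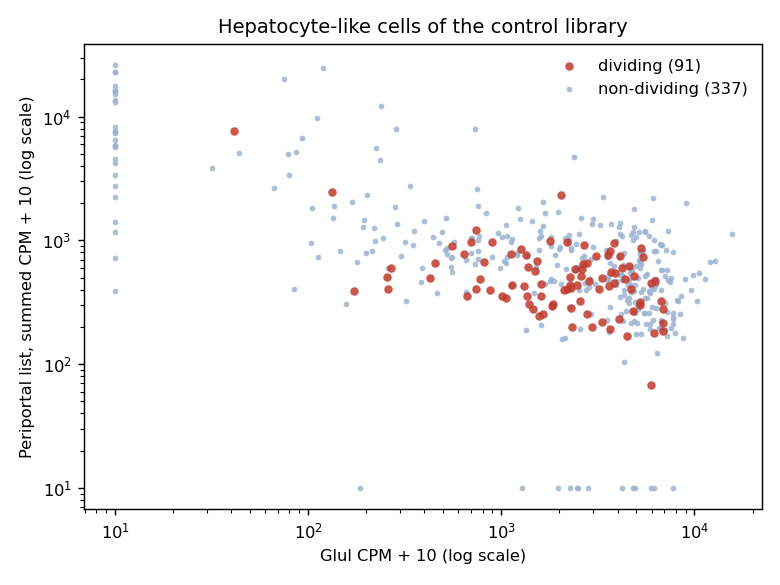
Control hepatocyte-like cells by Glul CPM + 10 (x axis, log scale) and summed CPM of the periportal list + 10 (y axis, log scale), dividing cells in red and non-dividing cells in blue. All but 4 of the 91 dividing cells lie under 1000 CPM of periportal RNA, and the cell at upper left is the 1 with 7683 CPM and 31.1 CPM of Glul.

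Inflammation and stress lists showed single genes. Of 13 acute phase genes 4 were lower and Steap4 was higher (2.58). Saa1, an acute phase apolipoprotein, had a ratio of 0.284 overall and 0.998 against the depth range. Of 16 interferon genes 4 were lower and Stat2 higher (2.03, and 1.96 against the depth range). Iigp1, an interferon-induced GTPase, had 76.1 CPM in dividing and 169 CPM in non-dividing cells (ratio 0.452), while Rsad2, Ifit1 and Ifit3 came from 4 to 9 dividing and 7 to 14 non-dividing cells. None of 12 MHC class I genes passed 2-fold, with B2m, the light chain, at 958 CPM in dividing and 1209 CPM in non-dividing cells. Of 22 early response and heat shock genes Hsp90aa1, an inducible chaperone, was higher at 1276 CPM in dividing and 505 CPM in non-dividing cells (ratio 2.53, 2.45 to 2.61), and so was Klf6 (2.73, 2.26 to 3.32). None of 13 mitochondrially encoded genes passed 2-fold against all non-dividing cells, with a median log2 ratio of -0.61. Against the depth range 5 were lower, and the median was -0.81. These ratios are of pooled UMIs, in which deep cells weigh more. The median cell had 50060 CPM of the summed list in dividing and 49732 CPM in non-dividing cells.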

How the data were processed

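Single-cell RNA was measured in 2 libraries, 1 mouse each. The authors deposited raw UMI count matrices. Cell Ranger and mm10 are named in the submitters' processing notes, and version 3.1.0 in the file headers. Per the labels, the kit was a 10x 3′ kit, named once as single-cell and once as single-nucleus, and at least 7500 cells at 20000 reads were intended. The matrices held 1366 GS-KO barcodes with 8805330 UMIs and 5074 control barcodes with 64770011 UMIs, of which 543 and 2815 passed the filter. Members held 7565328 UMIs.

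UMIs were summed per group and divided by the group's total to give CPM. Ratios carry conditional binomial, CPM Poisson and shares Clopper-Pearson 95% intervals, for counting error only. A gene was measured at 50 UMIs over both groups and called at 2-fold. The log2 ratio used a prior of 0.5 counts. The floor was 3 counts. Named genes were the 15 higher and 15 lower by the interval bound nearest 1 (genes of the member rule, mitochondrial, ribosomal, haemoglobin, immunoglobulin, Xist and Y-linked genes left out, and markers of other cell types over 5 times higher in barcodes that were not hepatocyte-like), and the most abundant or most different members of 36 lists. Other genes (Mcm10, Rrm2, Ccne2, Cyp2f2, Sds, E2f1, Myc, Cdkn1a, Mdm2, Pfas, Bhmt, Axin2, Lgr5, Tbx3, Cyp2e1, Iigp1, Steap4, Stat2, Aldh1b1 and the 4 set against C1q-rich cells) were chosen after their values were seen. Members and lists were chosen with earlier results of these data known. Scrublet (scanpy 1.11.5, expected rate 5%) called 7 of 662 GS-KO and 24 of 3275 control barcodes, which were kept. Values were computed in Python 3.11.15 with pandas 2.3.3, scipy 1.17.1 and numpy 2.4.6. Code was tested on simulated data. Gene positions are from GENCODE M21 (32235 of 32285 identifiers matched), promoters from RefSeq.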

Additional observations from a re-analysis of the deposited data

How the results depend on the processing

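No paired analysis was possible because each group is 1 library. Depth limits the comparisons: dividing cells were deeper than non-dividing cells and GS-KO hepatocyte-like cells shallower than control ones. Against 18.4% of control hepatocyte-like cells, the dividing share was 11.5% at 10 UMIs of Mki67 plus Top2a, 31.8% at 1 UMI (GS-KO 8.82%) and 11.7% after thinning. Against 847 higher genes there were 89 after thinning and 2484 at a minimum of 1 UMI per gene. Against 231 lower genes there were 106 after thinning, 360 with dividing cells of at least 10 UMIs, 402 and 2116 at minimums of 20 UMIs and 1 UMI per gene, and 148 with both groups at 1000 CPM of Glul or more. Lists whose median lay more than 1 from 0 on the log2 scale numbered 14, and 4 after thinning, where fewer genes were measured. The Glul ratio of 0.759 stayed below 1 in all 16 alternatives, 3 of which could not move it (the minimums of 20 UMIs and 1 UMI per gene, and leaving out called doublets, which removed no cell of either group). It was 0.787 with non-dividing cells of up to 2 UMIs, 0.778 with dividing cells of at least 10 UMIs, 0.714 at 5% hepatocyte RNA, 0.882 after thinning, 0.815 as a mean over cells, 0.729 without mitochondrial, haemoglobin and the rule's hepatocyte genes in the total, 0.707 with both groups in the depth range, 0.695 without the 9 deepest dividing cells and 0.696 with both groups at 1000 CPM of Glul or more. The last 3, and leaving out the dividing cell richest in periportal RNA, were chosen after seeing the data. Without that cell 851 genes were higher and 244 lower.

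Among ratios of named genes under the alternatives, 2431 stayed inside the interval of the main value, 984 left it in the same direction or without a 2-fold call, and 11 called ratios changed direction. The cause was not tested. Saa2 was 1.05 against the depth range, 1.62 with both groups in it and 2.03 with both at 1000 CPM of Glul or more. At that Glul level Ifit1 was 5.57, Serpina1c 1.53, Mup3 1.42, Saa1 1.35 and Serpina1a 1.12. Ifit1 was 3.85 at 10% mitochondrial UMIs, Slc13a3 1.31 after thinning and Gls2 1.15 with both groups in the depth range.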
